A study of Homo sapiens with 4 samples.

Results

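The cathepsins are lysosomal proteases named by letters. The 10 genes described here (CTSA, CTSB, CTSC, CTSD, CTSH, CTSL, CTSO, CTSS, CTSV and CTSZ) were listed by symbol and found under that symbol in the deposited gene table, out of 62069 genes in each count file. The list was chosen by the measured values of these same libraries, since CTSB had been seen to be much higher, at a high level, in cells with the NSD2 knockdown. The difference between the groups is therefore a description for these 10 genes. No p-value is printed for them, their calls are part of that description, and neither supports anything about the family. All 10 passed the filter on low counts. CTSO stood under 2 identifiers, and the second of them held 0 fragments in every library.

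Cathepsins are made as inactive proenzymes, tagged with mannose 6-phosphate in the Golgi and carried to the lysosome, where the acidic pH and other proteases activate them. Most are cysteine proteases related to papain, whereas cathepsin D is an aspartic protease and cathepsin A a serine carboxypeptidase. Cystatins hold the cysteine cathepsins in check outside the lysosome. In cells of the B lineage, cathepsins S and L are known for processing the invariant chain and antigens for MHC class II, and cathepsin B is known in tumours as a protease that can be secreted and degrade matrix.

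RNA was sequenced from KMS11, an established human cell line of multiple myeloma with the t(4;14) translocation, which places the histone methyltransferase gene NSD2 under an immunoglobulin enhancer. Per the labels, 2 libraries came from cells with an NSD2 knockdown (the shRNA is called shM2) and 2 from control cells, all infected by lentivirus in 10 µg/mL polybrene and collected 96 h after infection. The control is unnamed in the labels. The deposited gene table has shScr in its alignment names and LUC in the name of its contrast. Whether both names mean the control of these libraries is not stated in the labels. The labels name a single knockdown construct in a single cell line. The labels give no separate cultures for libraries of the same group, so each SD, SE and p-value reflects the spread of these samples alone and may be technical.

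The libraries labelled NSD2 knockdown held 48334736 and 55059566 counted fragments, and the control libraries 50417758 and 46728940. NSD2 itself stood at 919 and 1156 CPM in the libraries labelled knockdown, against 1121 and 1471 CPM in the control libraries (CPM are counts scaled to the size of each library, with TMM factors). Its groups overlapped, and its log2 fold change of -0.32 did not pass the test (edgeR quasi-likelihood, SE 0.15, adjusted p = 0.244), so that group is called by its label. It passed without NSD2 knockdown library 2 (log2 fold change -0.50, edgeR adjusted p = 0.0268) and without control library 1 (-0.50, 0.0196), while with GC content and length as terms of the fit its log2 fold change was -0.08 (0.753). All 10 plasma cell markers examined were tested, among them JCHAIN at 5031 and 5490 CPM in the libraries labelled knockdown and 5575 and 5428 CPM in control, although CD38 was near 0, at 0.163 ± 0.179 CPM in the libraries labelled knockdown and 1.12 ± 0.596 CPM in control (SD, n = 2 each). CD38 and the surface receptor SLAMF7 fell in the libraries labelled knockdown, with edgeR adjusted p-values of 0.0284 for CD38 and 0.000952 for SLAMF7 (119 ± 13.4 CPM in the libraries labelled knockdown, 254 ± 25.2 CPM in control), and the other 8 markers did not pass. That is 20.0% of the markers, beside 4.19% of all genes tested that were called lower. CD38 rests on 14 and 2 fragments in the libraries labelled knockdown and 78 and 33 in control. The part of the changes of CD38 and SLAMF7 in the cathepsin values was not tested. Of 16 markers of macrophages and other myeloid cells, which are rich in cathepsins, 15 were below the filter, 5 of them (MRC1, MARCO, TYROBP, C1QA and C1QC) at 0 fragments in all libraries, and ITGAM was the highest at 1.51 and 1.64 CPM in the libraries labelled knockdown and 1.94 and 2.59 CPM in control. Their summed level was 1.78 and 2.08 CPM in the libraries labelled knockdown and 2.20 and 2.93 CPM in control. The entry of MRC1 lies on a patch sequence (HG544_PATCH) and not on a chromosome, so its count of 0 is no measure of absence.

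The sequences before the gene starts are shown for 5 members. CTSA and CTSD hold the hexamer of lysosomal gene promoters, while CTSC, CTSH and CTSV are the members, other than CTSB, called in the fit described below. Those calls only set which sequences are printed, since the list was chosen with this contrast known. They are the 250 bases upstream of the RefSeq gene start on GRCh38.p14, read 5′ to 3′ along the gene. By symbol, 7 of the 10 members were matched in the promoter table, all but CTSB, CTSO and CTSS. Capitals mark CACGTG, the core of the element bound by the lysosomal regulator TFEB, GGGCGG, the GC box, and CCAAT, each on either strand.
CTSA (chr20:45891085-45891334, plus strand): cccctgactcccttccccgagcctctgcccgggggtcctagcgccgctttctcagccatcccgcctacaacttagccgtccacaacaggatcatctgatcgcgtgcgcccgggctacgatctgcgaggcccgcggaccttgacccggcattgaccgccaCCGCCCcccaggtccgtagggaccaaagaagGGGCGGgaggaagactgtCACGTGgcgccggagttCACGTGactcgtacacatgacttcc
CTSD (chr11:1763928-1764177, minus strand): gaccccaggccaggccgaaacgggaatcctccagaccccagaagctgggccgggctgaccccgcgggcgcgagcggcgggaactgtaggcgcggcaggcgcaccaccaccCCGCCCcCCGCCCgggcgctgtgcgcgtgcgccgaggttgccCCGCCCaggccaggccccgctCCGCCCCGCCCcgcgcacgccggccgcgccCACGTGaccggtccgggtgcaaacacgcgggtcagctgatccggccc
CTSC (chr11:88337737-88337986, minus strand): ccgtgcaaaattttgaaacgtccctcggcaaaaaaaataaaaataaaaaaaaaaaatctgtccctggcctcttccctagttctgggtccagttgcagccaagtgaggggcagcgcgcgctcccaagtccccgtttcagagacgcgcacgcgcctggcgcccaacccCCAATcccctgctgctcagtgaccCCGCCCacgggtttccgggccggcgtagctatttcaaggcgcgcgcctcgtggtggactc
CTSH (chr15:78945047-78945296, minus strand): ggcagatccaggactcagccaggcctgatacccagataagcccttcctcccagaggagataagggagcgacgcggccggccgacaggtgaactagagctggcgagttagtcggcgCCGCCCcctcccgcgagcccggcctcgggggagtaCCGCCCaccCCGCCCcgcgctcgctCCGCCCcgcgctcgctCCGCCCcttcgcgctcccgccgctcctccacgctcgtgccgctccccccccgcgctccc
CTSV (chr9:97039143-97039392, minus strand): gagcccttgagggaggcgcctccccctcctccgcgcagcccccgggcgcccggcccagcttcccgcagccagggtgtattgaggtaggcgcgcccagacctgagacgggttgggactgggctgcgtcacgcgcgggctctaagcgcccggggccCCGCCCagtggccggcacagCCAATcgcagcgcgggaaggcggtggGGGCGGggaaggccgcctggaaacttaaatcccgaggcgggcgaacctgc
Among the 7 matched members, 2 held CACGTG, namely CTSA with 2 copies that begin 42 and 25 bases before the start, and CTSD with 1 copy that begins 47 bases before it. CACGTG was present in 6.34% of the 35116 promoters of the same length. All 7 held GGGCGG, which 42.6% of all promoters held, and 3 held CCAAT (CTSC, CTSL and CTSV), which 32.0% of all promoters held. CTSD, CTSH and CTSZ had 5 copies of GGGCGG each, and 2 of the copies in CTSD overlap. The 3 motifs do not overlap one another in the sequences shown. A match is a description of the letters and no evidence that a factor binds.

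CTSL and CTSV, both on chromosome 9, are close in sequence, and their similarity bears on whether their fragments can be told apart. Their coding sequences in GENCODE 29 were identical at 83.2% of the longer one, the highest of all pairs of the cysteine cathepsins here, followed by CTSS and CTSV at 62.9%. The longest identical run was 40 bases. It is shown with 30 bases on each side, coding bases 400 to 499 of both genes, with the bases that differ in capitals.
CTSL: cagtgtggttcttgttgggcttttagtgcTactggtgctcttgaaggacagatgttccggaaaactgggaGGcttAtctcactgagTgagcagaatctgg
CTSV: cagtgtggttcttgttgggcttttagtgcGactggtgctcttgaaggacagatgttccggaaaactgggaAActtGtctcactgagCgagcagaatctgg
Only 5 of these 100 bases differ. No window of 50 bases was shared between the 2 transcripts, and the windows that CTSL shared with any other gene came to 0.752% of its transcript, mostly with the pseudogene CTSL3P. For CTSV the share was 0.421%, for CTSB 2.67% and for CTSS 0.419%, and for CTSC, CTSH, CTSO and CTSZ it was 0. It was 24.0% for CTSA, shared mainly with NEURL2, AL008726.1 and PLTP, and 60.6% for CTSD, shared with AC068580.4.

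CTSB had the widest difference of the family. It encodes cathepsin B, a cysteine protease that cuts within chains and also removes dipeptides from their ends (ENSG00000164733, chromosome 8, 11700033 to 11726957, minus strand, GRCh37). It stood at 1556 and 2209 CPM in the libraries labelled knockdown, against 555 and 627.5 CPM in control. Both libraries labelled knockdown lay above both control libraries, and the knockdown libraries differed from each other more than the control libraries did. Its mean was 1882 ± 462 CPM in the libraries labelled knockdown and 591 ± 51.3 CPM in control (SD, n = 2 each), a 3.18-fold difference, with a log2 fold change of 1.67 (SE 0.16, 95% interval 1.32 to 2.02). By mean CPM it ranked 62 among the 17172 genes tested, and by log2 fold change it ranked 42 from the top. In whole RNA from a culture, more RNA per cell and more cells with that RNA cannot be told apart.

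**Figure D1:**
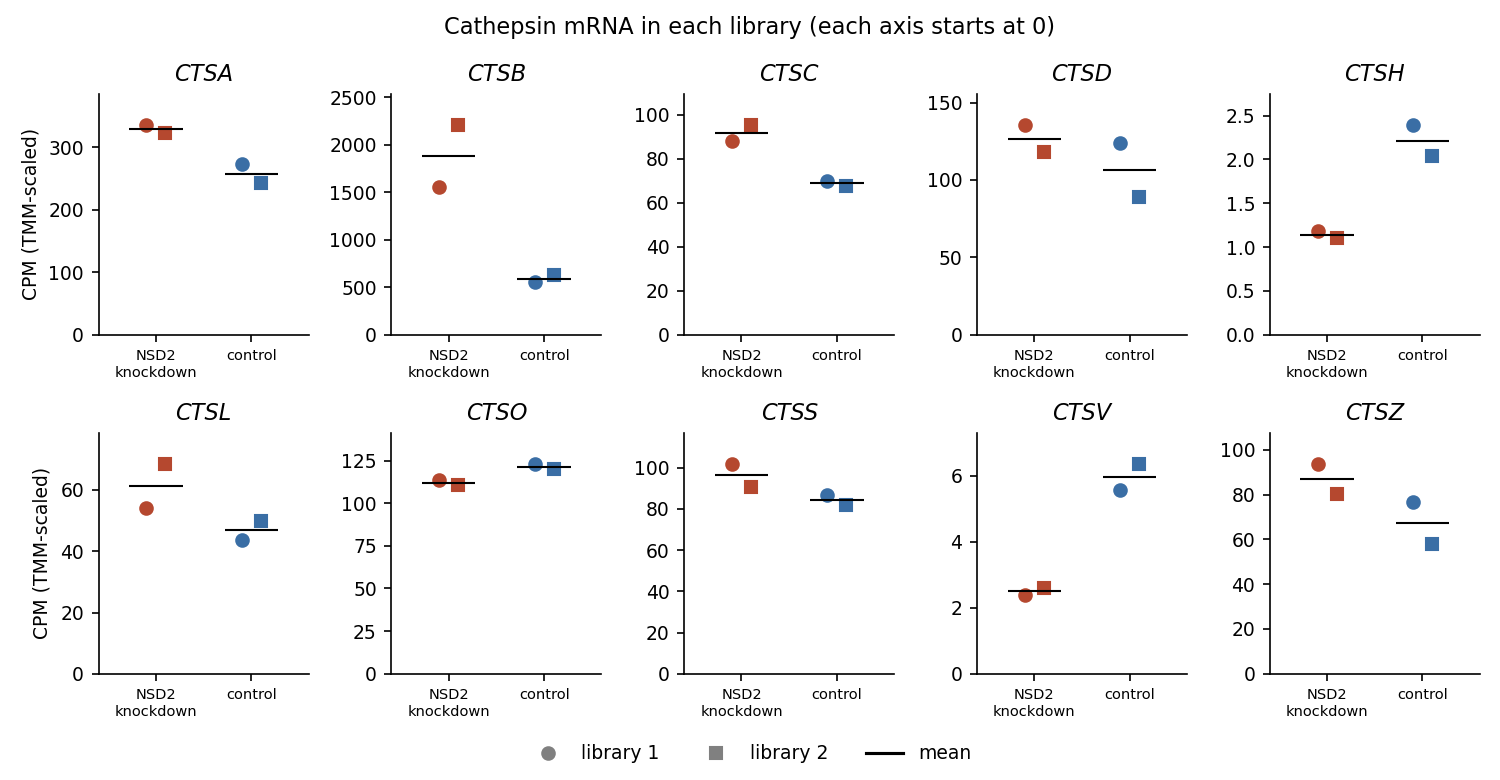
CPM of each of the 10 cathepsin genes in each library, with the libraries labelled NSD2 knockdown at the left and control at the right of each panel, circles for library 1, squares for library 2 and bars for the means of 2 libraries. CTSB lies at 1556 and 2209 CPM in the libraries labelled knockdown and 555 and 627.5 CPM in control, CTSV and CTSH lie lower in the libraries labelled knockdown, and the groups of CTSD overlap.

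The other endopeptidases of the cysteine class differed less. CTSL, which encodes a broad lysosomal endopeptidase (chromosome 9, 90340434 to 90346308), stood at 54.2 and 68.5 CPM in the libraries labelled knockdown and 43.8 and 49.99 CPM in control. The groups did not overlap, and the log2 fold change was 0.39 (SE 0.13). CTSS, whose protease stays active at neutral pH and trims the invariant chain (chromosome 1, 150702551 to 150738433), stood at 101.8 and 90.7 CPM in the libraries labelled knockdown and 86.75 and 82.0 CPM in control. The groups lay close but apart, with a log2 fold change of 0.19 (SE 0.10). CTSO, a little-studied member (chromosome 4, 156845270 to 156875069), had the smallest difference, at 113 and 110 CPM in the libraries labelled knockdown against 123 and 120 CPM in control, with a log2 fold change of -0.12 (SE 0.09).

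CTSV, the close relative of CTSL known from thymus, testis and cornea, went the other way (chromosome 9, 99794940 to 99801925). It stood at 2.40 and 2.60 CPM in the libraries labelled knockdown and at 5.56 and 6.36 CPM in control, from 116 and 141 fragments in the libraries labelled knockdown and 281 and 300 in control. Both libraries labelled knockdown lay below both controls, at a level 2.39-fold lower (log2 fold change -1.25, SE 0.18). The ratio of CTSL to CTSV per length was 16.4 and 19.2 in the libraries labelled knockdown and 5.73 and 5.72 in control. With transcript lengths in place of the deposited ones, described below, it was 44.8 and 52.3 in the libraries labelled knockdown and 15.6 in both control libraries. Both ratios use the same counts, so the gap between them comes from the lengths alone. The fragments of CTSV were counted over its deposited exons, which are shorter than that transcript, and this raises the second ratio.

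Among the members that remove residues from chain ends, CTSC was higher and CTSH lower. CTSC encodes dipeptidyl peptidase I, which activates the serine proteases of leukocyte granules (chromosome 11, 88026778 to 88070955). It stood at 88.2 and 95.4 CPM in the libraries labelled knockdown and 69.8 and 67.9 CPM in control, a 1.33-fold difference (log2 fold change 0.42, SE 0.09). CTSH encodes an aminopeptidase (chromosome 15, 79213400 to 79241916) and had few fragments, 57 and 60 in the libraries labelled knockdown and 121 and 96 in control. That is 1.18 and 1.11 CPM in the libraries labelled knockdown against 2.39 and 2.04 CPM in control, a 1.94-fold lower level (log2 fold change -0.96, SE 0.22). CTSZ encodes the carboxypeptidase cathepsin X (chromosome 20, 57570240 to 57582302). It stood at 93.7 and 80.1 CPM in the libraries labelled knockdown and 76.5 and 57.9 CPM in control (log2 fold change 0.37, SE 0.14), where the groups were apart by less than the gap between the 2 control libraries.

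The 2 members outside the cysteine class were not called in the edgeR fit with its default filter. CTSA, a carboxypeptidase that also protects beta-galactosidase and neuraminidase in a complex (chromosome 20, 44519591 to 44527459), stood at 336 and 324 CPM in the libraries labelled knockdown and 273 and 242 CPM in control. The groups were apart, with a log2 fold change of 0.35 (SE 0.10). CTSA was called higher with DESeq2 and in edgeR without a filter. CTSD, the aspartic protease of the lysosome (chromosome 11, 1773982 to 1785222), stood at 135.5 and 118 CPM in the libraries labelled knockdown and 124 and 89.3 CPM in control. It was the single member whose groups overlapped, and its log2 fold change was 0.25 (SE 0.15).

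Of the 10 members, 2 were called higher (CTSB and CTSC) and 2 lower (CTSV and CTSH) at an adjusted p below 0.05 in the edgeR fit over all genes, where 1.74% of 17172 genes were called higher and 4.19% lower, 5.93% in all. The groups did not overlap in 6 members in the higher and 3 in the lower direction, while 27.0% and 26.2% of all genes tested did so, 53.2% in all. Nothing is read from these counts, because the list was chosen with this contrast known. The median log2 fold change was 0.30 over the 10 members and 0.25 without CTSB, beside -0.0016 over all genes tested. The 6 members not called lay between -0.12 and 0.39. When each library was left out in turn, every member kept its sign, CTSB lay between 1.39 and 1.91 and CTSV between -1.34 and -1.16. CTSC was not called without NSD2 knockdown library 2, nor CTSH without NSD2 knockdown library 1, NSD2 knockdown library 2 or control library 1, and CTSH was also not called with DESeq2 or with GC content and length terms. The members called in each direction numbered 2 to 5 and 1 to 2 in these fits.

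**Figure D2:**
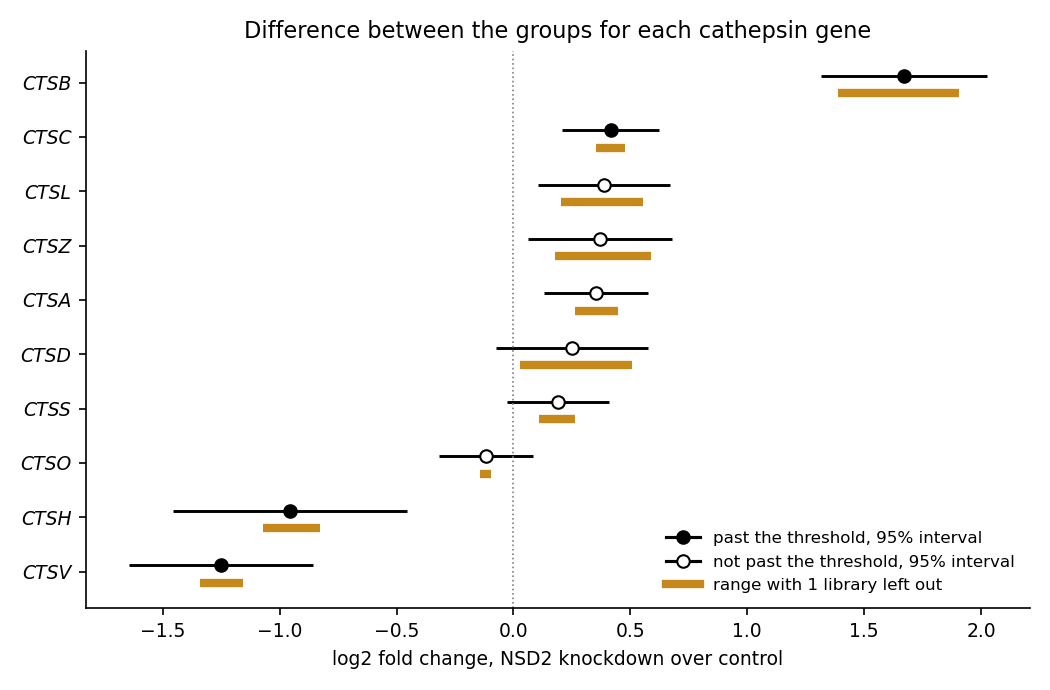
Log2 fold change of each cathepsin gene, NSD2 knockdown over control, with its 95% interval (black) and the range over 4 fits that each left out 1 library (ochre). CTSB stands at 1.67, CTSV and CTSH at -1.25 and -0.96, and the other members between -0.12 and 0.42.

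In the authors' deposited table, whose contrast is named M2 over LUC, the log2 fold change was 1.67 (SE 0.24) for CTSB, -1.21 (SE 0.34) for CTSV, -0.92 (SE 0.35) for CTSH and 0.43 (SE 0.28) for CTSC. The sign was the same as here for all 10 members. The authors' deposited table gives a base mean of 9849 for CTSZ, above the highest of the 4 deposited counts of 4531. Its model was therefore not built on these 4 libraries alone. Whether LUC names the control used here is not stated in the labels, so that contrast may have another control.

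The libraries of one group did not differ alike for all members. Between the 2 libraries labelled knockdown, the log2 ratio of number 2 to number 1 was 0.51 for CTSB and 0.34 for CTSL, and between the control libraries it was 0.18 and 0.19. CTSD and CTSZ differed the other way, by -0.20 and -0.23 between the libraries labelled knockdown and by -0.47 and -0.40 between the control libraries. CTSO moved by less than 0.04 in both groups. CTSD and CTSZ thus had a gap between the control libraries wider than the log2 fold change between the groups. The log2 fold change of CTSD was 0.51 without control library 1 and 0.03 without control library 2, and that of CTSZ was 0.59 and 0.18.

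Levels were compared between genes as FPKM, that is CPM divided by the deposited exonic length in kilobases. In the libraries labelled knockdown CTSB stood alone at the top, at 252 ± 61.7 FPKM, ahead of CTSA at 101 ± 2.61 FPKM (SD, n = 2 for each level). CTSZ (42.6 ± 4.71 FPKM), CTSD (42.2 ± 4.13 FPKM) and CTSO (37.9 ± 0.731 FPKM) formed the middle of the order, followed by CTSL (25.9 ± 4.28 FPKM) and CTSS (22.1 ± 1.81 FPKM). CTSC (8.05 ± 0.445 FPKM), CTSV (1.45 ± 0.0818 FPKM) and CTSH (0.194 ± 0.00879 FPKM) were the lowest. The neighbours whose libraries overlapped there were CTSZ with CTSD and CTSL with CTSS. In control CTSA and CTSB shared the top, at 79.1 ± 6.78 and 79.0 ± 6.86 FPKM. CTSO (41.1 ± 0.691 FPKM), CTSD (35.5 ± 8.08 FPKM) and CTSZ (32.98 ± 6.45 FPKM) came next, then CTSL (19.8 ± 1.86 FPKM) and CTSS (19.4 ± 0.776 FPKM). CTSC (6.04 ± 0.121 FPKM), CTSV (3.46 ± 0.33 FPKM) and CTSH (0.376 ± 0.0429 FPKM) were again the lowest. The control libraries overlapped for CTSA and CTSB, for CTSO and CTSD, for CTSD and CTSZ and for CTSL and CTSS, and not for the other neighbours.

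The order depends in part on the length used. The deposited length adds up every exon of a gene, and for CTSC it was 11403 bases against 1921 in the GENCODE 29 transcript with the longest coding sequence. With the length of that transcript for each gene, a choice made after the data were seen, CTSC stood at 47.8 ± 2.65 FPKM in the libraries labelled knockdown and 35.8 ± 0.714 FPKM in control. The fragments of CTSC were counted over all its deposited exons, so the shorter length raises this level by construction. For CTSV the transcript was longer than the deposited length, 4322 against 1721 bases, and its level was 0.578 ± 0.0325 FPKM in the libraries labelled knockdown and 1.38 ± 0.132 FPKM in control. Its fragments were counted over the deposited exons alone, so the longer length lowers this level by construction. CTSB then led in both groups, at 486 ± 119 FPKM in the libraries labelled knockdown and 153 ± 13.2 FPKM in control, with CTSA next at 153 ± 3.96 and 120 ± 10.3 FPKM. Their transcripts were also shorter than the deposited lengths, which raises both levels likewise. The lengths were 3875 against 7481 bases for CTSB and 2149 against 3261 for CTSA. CTSV and CTSH stayed the lowest.

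Summed over the 10 members, the family held 496 and 570 FPKM in the libraries labelled knockdown and 327 and 307 FPKM in control. CTSB made up 41.9% and 51.8% of that sum in the libraries labelled knockdown and 22.7% and 27.3% in control. Without CTSB the sums were 288 and 275 FPKM in the libraries labelled knockdown and 252 and 223 FPKM in control.

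**Figure D3:**
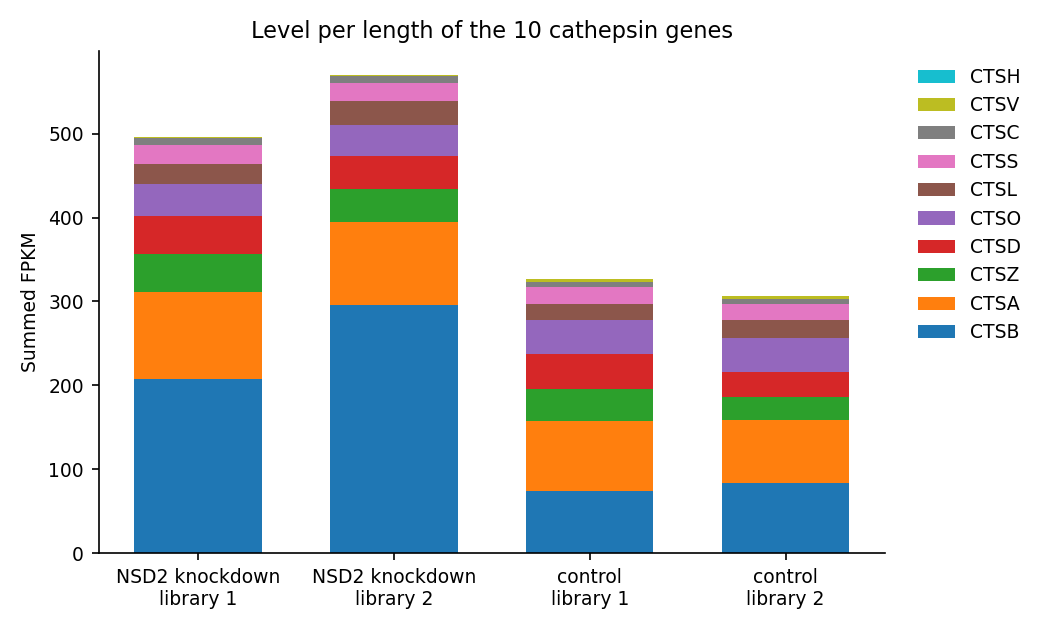
Summed FPKM of the 10 cathepsin genes in each library, stacked by gene, with CTSB at the bottom. The sums are 496 and 570 FPKM in the libraries labelled NSD2 knockdown and 327 and 307 FPKM in control, and the block of CTSB accounts for most of the gap.

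Of 5 cathepsins outside the list, 2 passed the filter on low counts, CTSK and CTSF. CTSK, which encodes the collagen-degrading protease of osteoclasts, rose to 20.9 ± 0.913 CPM in the libraries labelled knockdown, against 15.2 ± 0.611 CPM in control (log2 fold change 0.46, SE 0.11, edgeR adjusted p = 0.0436). That call was lost in 3 of 4 fits that left out 1 library, with an adjusted p of up to 0.281, and in 3 of 8 fits with another scaling, filter or test. CTSF, another cysteine cathepsin, stood at 16.4 and 18.0 CPM in the libraries labelled knockdown and 15.45 and 15.5 CPM in control and did not pass the test. The filter removed CTSW, CTSG and CTSE, which had at most 5 fragments in any library, and CTSE had 0 in all.

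The inhibitors that were tested did not pass in either direction. Of 14 genes for cystatins, serpins and A2M, 3 were tested, and 0 were called by edgeR, by DESeq2 or by limma-voom, or had an unadjusted edgeR p below 0.05. Over all genes tested, 5.93% were called by edgeR, so 0 of 3 says little about inhibitors. CSTB, which encodes stefin B, the inhibitor of cysteine cathepsins in the cytosol, stood at 266 and 307 CPM in the libraries labelled knockdown and 271 and 277 CPM in control (log2 fold change 0.07, edgeR adjusted p = 0.753). The ratio of CTSB to CSTB, per length, was 1.94 and 2.40 in the libraries labelled knockdown, against 0.683 and 0.754 in control. It rests on the deposited lengths, 7481 bases for CTSB and 2490 for CSTB. Other lengths would scale every library alike, so nothing is read from whether the ratio is above or below 1.

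Genes for partners and other peptidases of the lysosome gave 2 rises among 11 tested, where 1.74% of all genes tested were called higher. DPP7, a dipeptidyl peptidase of vesicles, rose to 55.0 ± 1.10 CPM in the libraries labelled knockdown, against 26.45 ± 3.88 CPM in control (log2 fold change 1.06, SE 0.12, edgeR adjusted p = 0.00124). PSAP, the precursor of the saposins that help to degrade sphingolipids, rose to 1573 ± 11.99 CPM in the libraries labelled knockdown, against 1057 ± 69.7 CPM in control (log2 fold change 0.57, SE 0.10, edgeR adjusted p = 0.0108). Both kept their call when any one library was left out. LGMN, chosen after its values were seen, encodes legumain, which matures several cathepsins, and stood at 1005 and 1346 CPM in the libraries labelled knockdown and 732 and 879 CPM in control without passing the test (log2 fold change 0.55, edgeR adjusted p = 0.0623). CD74, also chosen after its values were seen, encodes the invariant chain that cathepsin S trims, and stood at 2099 and 1780 CPM in the libraries labelled knockdown and 2969 and 2406 CPM in control without passing the test (log2 fold change -0.47, edgeR adjusted p = 0.0678).

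Among 25 genes of sorting to the lysosome, 1 rose and 1 fell, or 8.0%, beside 5.93% of all genes tested. NAGPA, the enzyme that uncovers the mannose 6-phosphate tag, rose to 22.25 ± 2.46 CPM in the libraries labelled knockdown, against 15.6 ± 1.10 CPM in control (log2 fold change 0.51, SE 0.12, edgeR adjusted p = 0.0404). LRP1, an endocytic receptor, fell to 1.06 and 1.79 CPM in the libraries labelled knockdown, against 2.61 and 6.36 CPM in control, which differed widely from each other (log2 fold change -1.65, SE 0.40, edgeR adjusted p = 0.0404). Among 19 acidification genes, 1 rose (5.26%), OSTM1, the partner of the chloride transporter CLCN7, at 36.5 and 38.2 CPM in the libraries labelled knockdown and 27.1 and 29.3 CPM in control (log2 fold change 0.41, SE 0.10, edgeR adjusted p = 0.0439). Among 21 tested genes of the MiT/TFE factors and nutrient sensing, 1 rose (4.76%), LAMTOR1, which anchors the Ragulator complex on the lysosome, at 53.1 and 56.1 CPM in the libraries labelled knockdown and 40.85 and 42.7 CPM in control (log2 fold change 0.39, SE 0.09, edgeR adjusted p = 0.0396). The factors TFEB, TFE3 and MITF, named after their values were seen, did not pass the edgeR test. Their log2 fold changes were 0.03, -0.16 and -0.39 in that order.

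Together these 6 lists gave 6 rises and 1 fall among 81 tested genes of 96, or 8.64% called, beside 5.93% of all genes tested (1.74% higher and 4.19% lower). Their median log2 fold change was 0.10, beside -0.0016 over all genes. Most of the calls were close to the threshold. Without NSD2 knockdown library 2, the calls of CTSK (adjusted p = 0.281), NAGPA (0.314), OSTM1 (0.259) and LAMTOR1 (0.283) were lost in edgeR, and 2 rises remained in number. Those of CTSK, OSTM1 and LAMTOR1 were also lost without NSD2 knockdown library 1 (0.064, 0.07 and 0.063 in that order), that of CTSK without control library 2 (0.0782) and that of OSTM1 without control library 1 (0.0612). LRP1 had an edgeR adjusted p of 0.0715 and a log2 fold change of -0.87 without control library 2, and also did not pass with library-size scaling, a filter of 1 CPM, limma-voom or GC content and length terms. CTSK, NAGPA and OSTM1 did not pass with upper-quartile or library-size scaling or with the filter of 1 CPM, nor LAMTOR1 with either scaling, whereas DPP7 and PSAP passed under each of these. Over all alternatives but those with a replicate block, the adjusted p ran from 0.0165 to 0.281 for CTSK, from 0.00408 to 0.314 for NAGPA, from 0.0164 to 0.259 for OSTM1, from 0.0161 to 0.283 for LAMTOR1 and from 1.15e-11 to 0.0721 for LRP1.

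**Figure D4:**
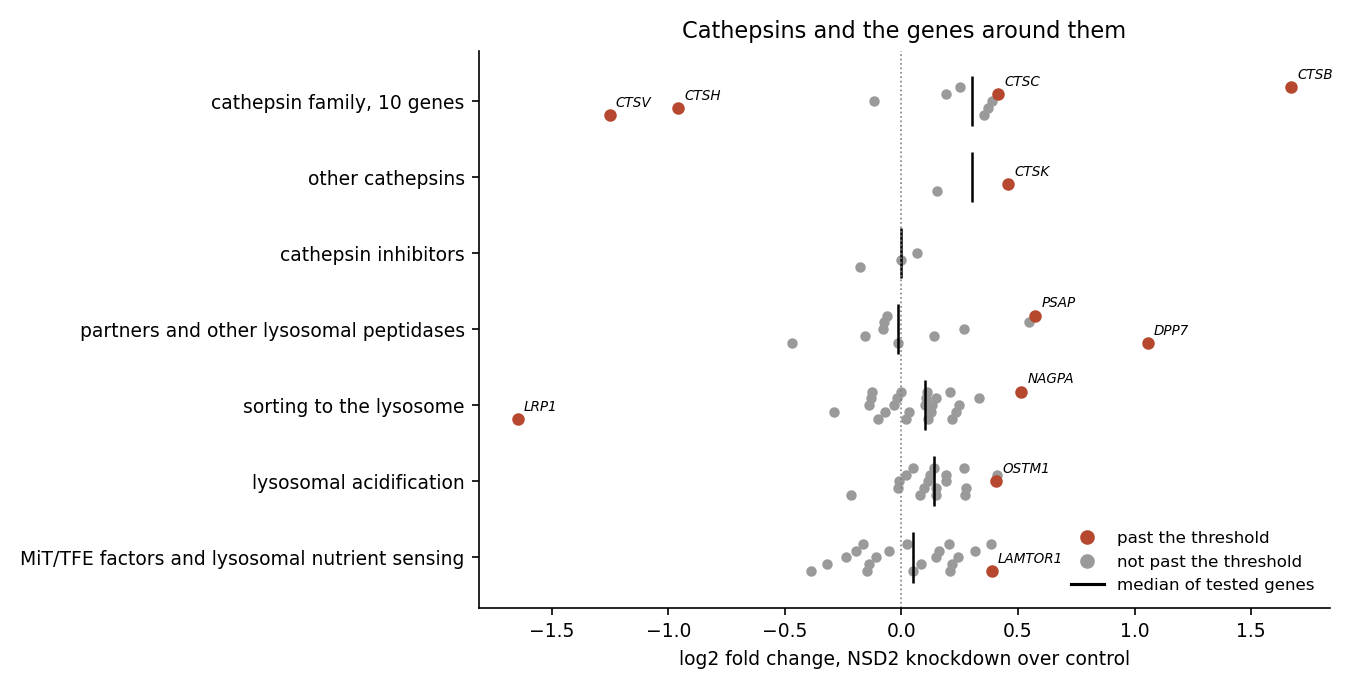
Log2 fold change, NSD2 knockdown over control, of each tested gene in the cathepsin family and in 6 lists of related genes, with genes past the threshold in red and named and the median of each list as a bar. The 6 lists hold 7 genes past the threshold among 81 tested, and the 21 tested genes of the MiT/TFE list lie between -0.39 and 0.39.

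The position of CTSB was looked at as well. Of 6 tested genes within 250 kb, 0 passed the test in edgeR, DESeq2 or limma-voom, and 0 had an unadjusted edgeR p below 0.05. Over all genes tested, 5.93% were called by edgeR, so 0 of 6 says little. The nearest neighbour of CTSB, FDFT1, which encodes squalene synthase, stood at 153 and 185 CPM in the libraries labelled knockdown and 133 and 152 CPM in control (log2 fold change 0.25, edgeR adjusted p = 0.248). NEIL2 and GATA4 had log2 fold changes of 0.26 and -0.15, and SUB1P1, C8orf49 and an unnamed gene, ENSG00000255046, were below 0.5 CPM. CTSB overlaps no other gene of the deposited table.

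Fragments were counted without regard to strand, which touches 2 members. CTSA overlaps PLTP by 61 bases and NEURL2 by 336 bases, both on the other strand, and their levels were 25.2 ± 2.79 and 1.18 ± 0.0556 CPM in the libraries labelled knockdown and 25.1 ± 2.96 and 1.31 ± 0.0355 CPM in control, far below CTSA. CTSD overlaps 4 genes without a symbol, at most at 0.682 CPM in any library. Of these, ENSG00000235027 and ENSG00000265587 lie on the other strand. ENSG00000229512 and ENSG00000250644, whose span overlaps that of CTSD by 6300 bases, lie on the same strand, so strand could not separate them. Whether fragments that fall on more than 1 gene were left out of the counts was not tested. Given the windows of 50 bases that CTSA and CTSD share with other genes of GENCODE 29, part of the signal of both cannot be given to 1 gene by sequence alone.

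By pattern over the 4 libraries, the genes most like CTSB among 10227 genes of at least 5 CPM were MICALL2, PRTN3 and EMID1, with a root mean square difference of centred log2 CPM of 0.11, 0.15 and 0.16. MICALL2, which links a small GTPase to actin, stood at 55.4 and 63.5 CPM in the libraries labelled knockdown and 17.5 and 19.1 CPM in control. PRTN3, the neutrophil serine protease proteinase 3, stood at 16.1 and 21.7 CPM in the libraries labelled knockdown and 7.12 and 6.62 CPM in control. EMID1 stood at 8.69 and 10.0 CPM in the libraries labelled knockdown and 3.36 and 3.58 CPM in control. Such a likeness over 4 libraries in 2 groups describes the pattern only.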

How the data were processed

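The deposited values are raw fragment counts per Ensembl gene, 1 file for each of 4 libraries. Per the submitters' processing notes, Trim Galore 0.3.7, STAR 2.5.3, Picard and featureCounts of Subread 1.4.6 were used with GRCh37. Per the file headers, counting ignored strand and used alignments named as free of duplicates. The authors' deposited DESeq2 table also gives a log2 fold change with its SE, a Wald statistic (a score), p-values, a base mean (a normalised signal) and exonic lengths. Its 4 count columns stayed unused, as did the 1 blank line in each count file.

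Counts were tested with the quasi-likelihood test of edgeR 4.0.16 (R 4.3.3; TMM scaling, default filter, no covariate). The Benjamini-Hochberg adjustment ran over all 17172 genes tested, with a threshold of 0.05. The coefficient of biological variation was 9.81%. The procedure was tested on simulated data. Alternatives used DESeq2 1.42.0 and limma 3.58.1. GC content came from GENCODE 29, for 96.3% of the genes tested. Sequences are from RefSeq and GENCODE 29. Figures were drawn with matplotlib 3.10.9.

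The members and gene lists were chosen with earlier results of these data known. Most genes named outside the family passed the threshold (up to 3 a direction in each list) or led a list without calls. Others lay near CTSB, overlapped a member or resembled CTSB. Exceptions include NSD2, JCHAIN, CTSF, the genes named as below the filter and those marked in the text.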

Additional observations from a re-analysis of the deposited data

How the results depend on the processing

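The members kept their signs under every alternative run. The count of genes called higher was 299 and of those called lower 719, and leaving out 1 library moved these to 173 to 682 and 649 to 1342. Without a filter they were 658 and 1490. Members called higher numbered 2 and went to 5 without a filter, and 2 to 5 with 1 library left out. Members called lower numbered 2 and went to 1 with DESeq2 and to 1 with GC content and length terms, and to 1 to 2 with 1 library left out. Genes of the 6 related lists called higher numbered 6, and 2 with upper-quartile scaling, 2 with library-size scaling alone, 3 with a filter of 1 CPM and 2 to 9 with 1 library left out. Those called lower numbered 1, and 0 with library-size scaling alone, 0 with the filter of 1 CPM, 0 with limma-voom, 2 without a filter, 2 with DESeq2 and 1 to 4 with 1 library left out. Why these counts changed was not tested for any alternative. The filters also change the number of genes tested. A fit with 1 library in a group takes its spread from the other group.

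With the number in the titles as a replicate block, 1327 genes were called higher and 1992 lower, with 6 members higher, and 14 of the related genes higher and 5 lower. With the block and GC content and length terms these were 2045, 1899, 6, 22 and 3. NSD2 passed with the block (log2 fold change -0.32, adjusted p = 0.0197), without a filter (0.0173) and without NSD2 knockdown library 2 (0.0268) or control library 1 (0.0196), over a range of 0.0173 to 0.753. Nothing in the labels ties samples of the same number to each other. Over genes, the difference of number 2 from number 1 correlated between the groups at 0.236.

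CTSH and CTSV rest on few fragments, 57 to 121 and 116 to 300 per library, which limits the precision of their fold changes.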
